A study of Homo sapiens with 6 samples.

Results

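The BMP and TGF-beta response genes described here are ID1, ID2, ID3, ID4, SMAD6, SMAD7, BAMBI and SKIL. They were taken by symbol, as short-lived targets or feedback inhibitors of the pathway, by a rule that uses no measured value. All 8 were found among the 58051 genes of the count table. Of these, 7 passed the filter on low counts and were among the 16974 genes tested, and ID4 had no count in any library.

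Total RNA was sequenced from 6 cultures of DLD-1, a human colorectal adenocarcinoma line, in which both copies of TPR were fused to a degron that responds to auxin and to the fluorescent protein NeonGreen. TPR lines the nuclear basket of the nuclear pore. The cells also carried TIR1, the plant ligase subunit that marks degron proteins for destruction once auxin is present, placed at the RCC1 gene. All 6 cultures received 200 nM Leptomycin B for 3 h, a blocker of the nuclear export receptor CRM1, and 3 of them (LMB+auxin) also received 1 mM auxin for 2 h, whereas the other 3 (LMB) did not. The incubation time in the labels and the methods give 3 h for Leptomycin B, whereas the sample titles give 2 h. The comparison asked what the loss of TPR protein added when CRM1 was already blocked. Tagged cells were grown from PCR-genotyped clones, per the study's methods, so the values describe an engineered line. No culture without Leptomycin B was analysed here, so its own effect on these genes was not measured. TPR RNA was at 157.2 to 180.4 CPM (counts brought to equal library size and composition) in LMB and at 185.0 to 192.5 CPM in LMB+auxin, but auxin acts on TPR protein, so its RNA does not check the labels.

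Total counts per library ran from 28261903 to 35992425. Of the 8 colon epithelial markers, EPCAM, KRT8, KRT18, KRT19, CDH1, CDX2 and VIL1 were expressed, and CDX1 had 1 count in all. Their summed level was 7342 to 7945 CPM in the 6 libraries. Of 8 markers of fibroblasts, leukocytes and endothelium, 1 passed the filter on low counts, and their summed level was 3.48 to 6.76 CPM.

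BMP ligands bind paired serine/threonine kinase receptors, which phosphorylate SMAD1, SMAD5 and SMAD9, whereas TGF-beta and activin receptors act through SMAD2 and SMAD3. The phosphorylated SMADs join SMAD4, enter the nucleus and switch on target genes. SMAD4 returns to the cytoplasm through CRM1, the receptor that Leptomycin B blocks. Among the fastest BMP targets are the ID genes, whose products bind basic helix-loop-helix factors and keep them from DNA. SMAD6, SMAD7 and BAMBI are targets that damp the same pathway. In the colon, BMP signals are stronger towards the top of the crypt, where epithelial cells differentiate.

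For the letters of known SMAD and promoter motifs, the 250 bases upstream of the transcription start were read from RefSeq on GRCh38.p14 and searched on both strands for 6 motifs. These were the palindromic SMAD site GTCTAGAC, the GC-rich SMAD1/5 site GGCGCC, the SMAD box CAGAC, the cAMP response element TGACGTCA, the TATA box TATAAA and the CCAAT box CCAAT. The motifs share no match in these windows other than the TATAAA pair named for ID1. All 8 genes had an entry, with 10 windows in total because SMAD7 had 3 starts. The windows of 4 genes are printed, each 5′ to 3′ on the gene's strand with every motif in capitals. ID1 and ID3 are shown because their values moved most alike, BAMBI because its groups did not overlap, and SMAD6 because it held the rarest motif. The ID1 window is chr20:31605039-31605288 on the plus strand, that of ID3 chr1:23559502-23559751 on the minus strand, that of BAMBI chr10:28677271-28677520 on the plus strand and that of SMAD6 chr15:66701986-66702235 on the plus strand.
ID1: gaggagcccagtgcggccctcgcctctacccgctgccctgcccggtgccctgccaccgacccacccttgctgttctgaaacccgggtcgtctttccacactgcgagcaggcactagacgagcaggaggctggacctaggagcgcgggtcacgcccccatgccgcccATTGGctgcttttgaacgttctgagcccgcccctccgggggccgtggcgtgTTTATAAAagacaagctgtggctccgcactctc
ID3: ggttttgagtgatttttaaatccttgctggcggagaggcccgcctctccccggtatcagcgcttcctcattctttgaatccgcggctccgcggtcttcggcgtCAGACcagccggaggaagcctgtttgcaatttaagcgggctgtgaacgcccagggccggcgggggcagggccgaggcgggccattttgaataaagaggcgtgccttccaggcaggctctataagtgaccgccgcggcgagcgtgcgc
BAMBI: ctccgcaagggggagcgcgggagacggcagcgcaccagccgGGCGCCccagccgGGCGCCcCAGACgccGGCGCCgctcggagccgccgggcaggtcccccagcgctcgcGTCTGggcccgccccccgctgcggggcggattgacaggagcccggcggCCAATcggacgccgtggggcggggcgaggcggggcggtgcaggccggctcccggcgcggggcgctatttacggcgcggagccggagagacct
SMAD6: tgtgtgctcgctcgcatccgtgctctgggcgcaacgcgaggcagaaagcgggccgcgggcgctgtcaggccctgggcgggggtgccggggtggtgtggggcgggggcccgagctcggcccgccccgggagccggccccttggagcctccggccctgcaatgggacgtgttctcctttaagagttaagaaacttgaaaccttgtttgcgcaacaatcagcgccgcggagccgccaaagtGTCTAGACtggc

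The palindrome GTCTAGAC stood 12 to 5 bases upstream of the start of SMAD6, and 0.182% of 35116 such windows of all genes held it. BAMBI held GGCGCC 3 times, at 209 to 204, 196 to 191 and 181 to 176 bases upstream, a motif found at least 1 time in 16.4% of windows. That share is over all windows and is not matched for base content, and 81.2% of the BAMBI window is G or C. BAMBI also held CAGAC 2 times and CCAAT 1 time, motifs found in 38% and 32% of windows. ID1 had a TATAAA match 31 to 26 bases upstream, overlapping a match on the other strand at 33 to 28 bases, and CCAAT 84 to 80 bases upstream. TATAAA was in 10.7% of windows. ID3 had CAGAC 147 to 143 bases upstream and none of the other 5 motifs. Among the windows not printed, SKIL held TGACGTCA, a motif in 1.65% of windows, 54 to 47 bases upstream. A match describes the letters of the window and shows no binding.

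Levels were compared between genes per exonic length, as RPKM (counts per kilobase of exon, scaled for depth like CPM), averaged over the 6 libraries. ID2 was highest at 46.8 RPKM, followed by BAMBI at 29.6, ID1 at 29.3, SMAD7 at 14.5, ID3 at 14.4, SKIL at 2.13 and SMAD6 at 0.334. ID2 ran from 36.3 to 57.2 RPKM over the 6 libraries, above every value of BAMBI (27.6 to 32.4) but not above every value of ID1 (19.3 to 45.3). ID1 and BAMBI overlapped, as did SMAD7 (13.6 to 15.6) and ID3 (9.52 to 23.0), so neither pair of neighbours was ordered beyond its spread. SKIL (1.88 to 2.47) and SMAD6 (0.272 to 0.433) stood below all the others. The order of ID3 and SMAD7 depended on the length used, since per length of the longest transcript ID3 was at 22.6 and SMAD7 at 17.1. ID4, at chr6:19837370-19842197, was at 0 counts in all 6 libraries, which allows up to 3 counts, or 0.0835 to 0.104 CPM per library.

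None of the 7 tested genes was called between LMB+auxin and LMB. A call needed an adjusted p under 0.05 over all tested genes and a fold change of at least 1.3. The fit without a replicate block called 1 of 16974 genes (0.00589%). Libraries with the same replicate number deviated together, so the fit with the replicate number as a block is given beside it. With the block, 201 genes were called (1.18%), and again 0 of the 7. At the adjusted p alone, the block passed 740 genes (4.36%), among them 1 of the 7, ID3. At an unadjusted p under 0.05, edgeR gave 0 of the 7 genes without the block and 3 with it (ID1, ID3 and BAMBI), beside 4.37% and 19.9% of all tested genes. DESeq2 and limma-voom also called 0 of the 7, with and without the block. DESeq2 with the block gave SMAD6 no adjusted p, so SMAD6 could not be called there. The median log2 fold change of the 7 was 0.08 with the block, beside -0.0034 for all tested genes. In these bulk samples, fewer cells expressing a gene and less RNA per cell cannot be told apart.

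**Figure D1:**
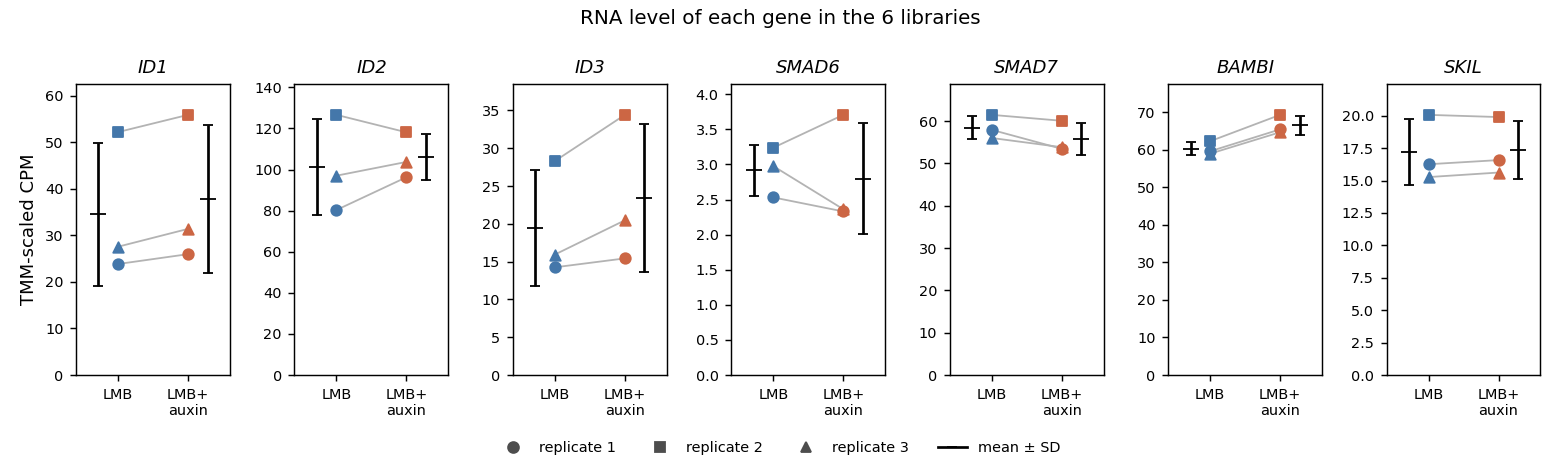
Level of each of the 7 tested genes in CPM (linear axis from 0, one panel per gene) in LMB and LMB+auxin, with a point for each library, its replicate number, and the mean with SD of 3 libraries per group. ID1 reached 52.2 and 55.9 CPM in the replicate 2 libraries against 23.9 to 31.4 in the other 4, and in BAMBI the groups did not overlap.

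ID3 (chr1:23557926-23559501, minus strand, 3 exons) showed the clearest difference of the ID genes. It was at 14.2, 28.3 and 15.9 CPM in LMB replicates 1, 2 and 3, and at 15.4, 34.4 and 20.5 CPM in LMB+auxin. Each LMB+auxin library was above the LMB library of the same number, while the ranges of the groups overlapped. Without the block the log2 fold change was 0.27 (adjusted p = 0.957). With the block it was 0.26 ± 0.07 (SE, n = 3 per group; adjusted p = 0.0114), a fold of 1.20 with a 95% interval of 1.09 to 1.32, so ID3 rose by the adjusted p but stayed under the fold of 1.3. With the block this adjusted p was 0.263 by DESeq2, 0.143 without replicate 2 and 0.366 without replicate 3, all above 0.05.

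ID1 (chr20:31605283-31606515, plus strand, 2 exons) was at 23.9, 52.2 and 27.6 CPM in LMB and at 26.0, 55.9 and 31.4 CPM in LMB+auxin. All 3 pairs were higher with auxin, and the replicate 2 libraries of both groups stood far above the other 4. ID1 had a log2 fold change of 0.13 without the block (adjusted p = 0.982) and 0.14 ± 0.06 with it (SE; adjusted p = 0.183). ID2 (chr2:8678845-8684461, plus strand, 3 exons) was at 80.3, 126.6 and 97.0 CPM in LMB and at 96.2, 118.1 and 103.7 CPM in LMB+auxin. Here 2 pairs were higher with auxin and the pair of replicate 2 was lower. ID2 had a log2 fold change of 0.07 without the block (adjusted p = 0.977) and 0.08 ± 0.05 with it (SE; adjusted p = 0.368). ID2 shares 145 exonic bases with ID2-AS1 on the opposite strand, at 3.34 to 5.42 CPM, and the sources used here do not say whether reads were counted by strand.

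The inhibitory SMADs did not pass the test in either fit. SMAD7 (chr18:48919853-48950965, minus strand, 4 exons), which blocks the receptors of both branches and recruits ubiquitin ligases to them, was at 57.9, 61.5 and 56.0 CPM in LMB and at 53.5, 60.1 and 53.9 CPM in LMB+auxin. All 3 pairs were lower with auxin, by a log2 fold change of -0.07 ± 0.05 with the block (SE; adjusted p = 0.488) and -0.07 without it (adjusted p = 0.954). SMAD6 (chr15:66702236-66782849, plus strand, 4 exons), which acts mainly on BMP receptors and SMAD1, was at 2.53, 3.24 and 2.98 CPM in LMB and at 2.33, 3.71 and 2.36 CPM in LMB+auxin. Its pairs went both ways, 1 higher and 2 lower. SMAD6 had a log2 fold change of -0.07 ± 0.14 with the block (SE; adjusted p = 0.819) and -0.06 without it (adjusted p = 0.982). Counting error alone was 10.6% of a library's value for SMAD6, against 1.76% to 4.32% for the other 6 genes.

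BAMBI (chr10:28677510-28682932, plus strand, 3 exons) encodes a receptor-like membrane protein without a kinase domain. It was at 59.6, 62.3 and 58.9 CPM in LMB and at 65.4, 69.3 and 64.7 CPM in LMB+auxin. Each LMB+auxin library was above all 3 LMB libraries, so the groups did not overlap, as in 1956 of the tested genes (11.5%) and in 1 of the 7 here. The log2 fold change was 0.14 in both fits, with an adjusted p of 0.954 without the block and of 0.103 with it, and with the block the 95% interval ran from 0.04 to 0.24. SKIL (chr3:170357342-170396835, plus strand, 7 exons) encodes SnoN, a co-repressor that binds SMAD complexes. It was at 16.3, 20.1 and 15.3 CPM in LMB and at 16.6, 19.9 and 15.6 CPM in LMB+auxin. The values of LMB and LMB+auxin were nearly equal within each pair, with a log2 fold change of 0.02 ± 0.07 with the block (SE; adjusted p = 0.928) and 0.01 without it (adjusted p = 0.994).

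With the block, the 95% intervals of 6 of the 7 genes lay inside a 1.3-fold change in either direction, and that of ID3 reached past it. Without the block, the log2 intervals of ID1 (-0.738 to 0.993) and ID3 (-0.537 to 1.067) reached far past that change. Those of ID2 (-0.277 to 0.408) and SMAD6 (-0.53 to 0.403) also reached past it. These intervals are not adjusted for the number of genes. Across the 7 genes, 4 moved the same way in all 3 pairs (ID1, ID3 and BAMBI higher, SMAD7 lower), beside 41.9% of all tested genes.

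**Figure D2:**
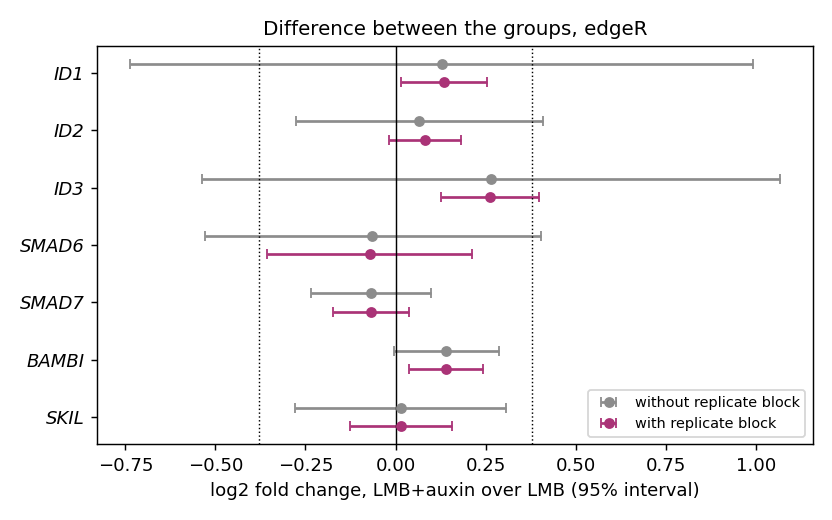
Log2 fold change of LMB+auxin over LMB for the 7 tested genes, without and with the replicate block, with 95% intervals. With the block the ID3 interval runs from 0.13 to 0.40 and crosses the line of a 1.3-fold change, while that of SKIL runs from -0.13 to 0.16.

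The spread among libraries followed the replicate number more than auxin in 6 of the 7 genes. The sum of squares of the log2 CPM was split into replicate number, treatment and the rest. The replicate number held 97.9% of it in ID1, 91.7% in ID3, 84.0% in ID2, 99.3% in SKIL, 77.8% in SMAD6 and 73.8% in SMAD7, beside a median of 61.1% over all tested genes. In BAMBI it held 23.3% and the treatment 76.3%, beside a median treatment share of 12.9%. These shares are descriptions of 6 libraries. Replicate number has more levels than treatment, so it can hold the larger share without any effect.

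**Figure D3:**
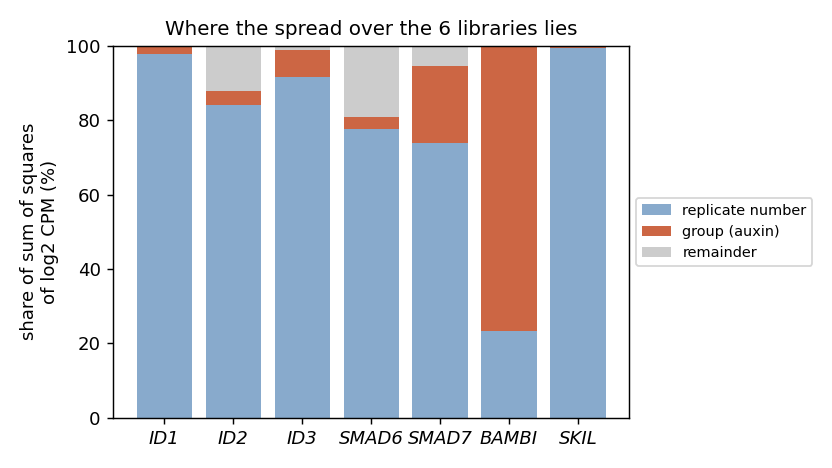
Share of the sum of squares of log2 CPM over the 6 libraries, in percent, held by replicate number, treatment and the rest, as stacked bars for the 7 tested genes. The replicate number holds most of every bar but that of BAMBI, where the treatment holds 76.3%.

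The replicate 2 libraries carried more ID transcript in both groups. Their mean level was 1.99 times that of the mean of replicates 1 and 3 in ID1, a ratio that 33 of the 16974 tested genes reached (0.194%), and 1.90 times in ID3, which 41 genes reached (0.242%). It was 1.36 times in SMAD6 (reached by 4.54% of genes), 1.298 in ID2 (6.69%), 1.25 in SKIL (8.85%), 1.10 in SMAD7 (25.5%) and 1.06 in BAMBI (33.0%). ID1 and ID3 moved together, with a Pearson r of 0.986 between their log2 CPM over the 6 libraries, which share these replicate numbers, and the ratio of ID1 to ID3 per exonic length stayed between 1.86 and 2.24. For BAMBI and SMAD7 the r was 0.03. Of the 9 other TGF-beta targets tested, 4 were also high in replicate 2, namely CDKN1A (2.13 times, reached by 0.0943% of all tested genes), JUNB (1.73, 0.636%), KLF10 (1.42, 3.31%) and MYC (1.41, 3.41%). The other 5, TGIF1, TGFBI, CDKN2B, CCN2 and SNAI1, were at 0.852 to 1.01 times. None of the 4 other BMP targets tested was high in replicate 2. MSX2 was at 1.01 times, GATA6 at 0.864, GATA2 at 0.845 and MSX1 at 0.773. The ratios of these TGF-beta and BMP targets were looked at after the values were seen. What set replicate 2 apart was not tested.

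**Figure D4:**
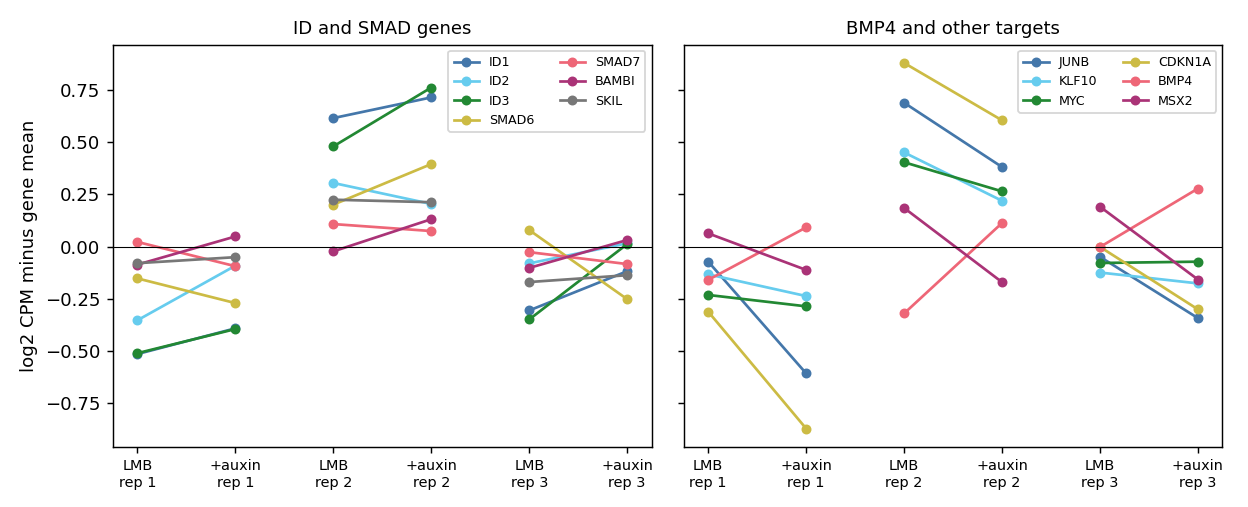
Deviation of log2 CPM in every library from that gene's own mean, with a line joining the LMB and LMB+auxin libraries of the same replicate number, for the 7 tested genes (left) and for BMP4, MSX2, JUNB, CDKN1A, KLF10 and MYC (right). ID1 lies 0.62 and 0.71 above its mean in the replicate 2 libraries and below its mean in the other 4, and BMP4 rises along each line.

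The ligands, receptors and other genes of the pathway were taken from lists by role. Counting each gene once, 65 of 111 listed genes were tested. None was called by edgeR in either fit, nor by DESeq2 or limma-voom. Among the named genes, ACVR1, SMAD9 and CCN2 had no adjusted p by DESeq2 with the block and could not be called there. At an unadjusted p under 0.05, edgeR gave 3 of the 65 without the block and 17 with it, beside the same 4.37% and 19.9% of all tested genes. With the block 6 passed the adjusted p alone, 1 higher and 5 lower, beside 4.36% of all tested genes. The median log2 fold change of the 65 was -0.02 with the block. The groups did not overlap in 10 of the 65 genes, beside 11.5% of all tested genes.

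**Figure D5:**
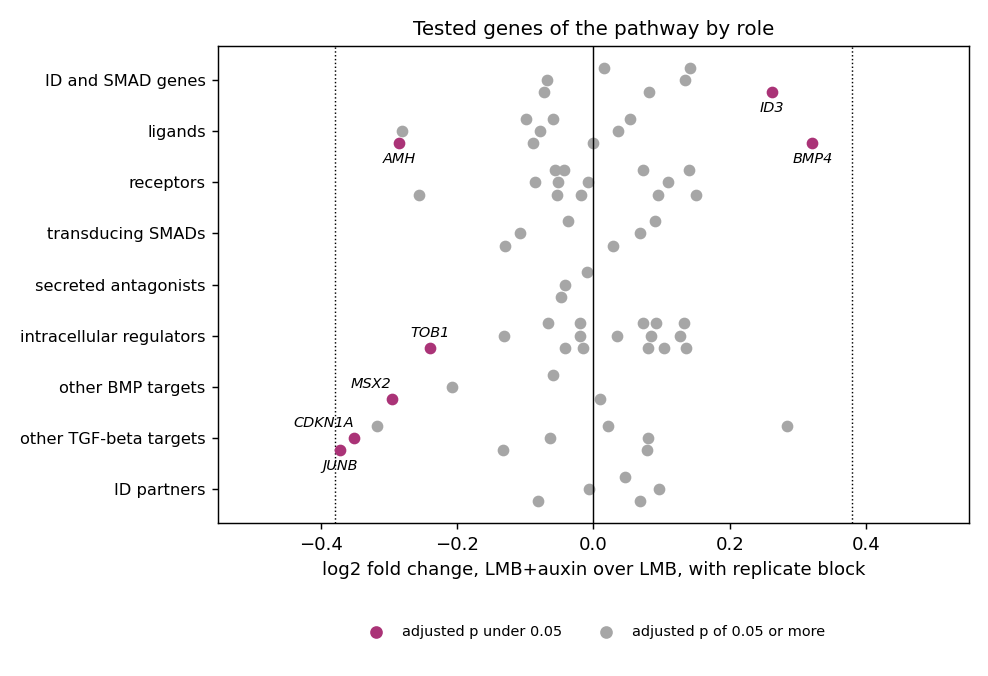
Log2 fold change of LMB+auxin over LMB with the replicate block for the tested genes of the lists, by role, with dotted lines at a 1.3-fold change and coloured points for genes with an adjusted p under 0.05. The 7 coloured genes are ID3, BMP4, AMH, TOB1, MSX2, JUNB and CDKN1A, and all lie inside the dotted lines.

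Among the ligands, 10 of 32 were tested, and 1 rose and 1 fell by the adjusted p with the block. BMP4, a ligand of the BMP branch, was at 216.3, 193.5 and 241.3 CPM in LMB and at 257.5, 261.3 and 292.9 CPM in LMB+auxin. All 3 LMB+auxin libraries were above all 3 LMB libraries. The log2 fold change was 0.32 ± 0.05 with the block (SE; adjusted p = 1.035e-07), a fold of 1.25, and 0.32 without it (adjusted p = 0.954). With the block, the adjusted p of BMP4 was at most 0.00589 by every other setting and with any replicate left out. At 78.8 RPKM, BMP4 was the most abundant tested ligand per length, ahead of TGFB1 at 15.2 RPKM, whose log2 fold change was 0.04 ± 0.06 (SE; adjusted p = 0.755 with the block). AMH, anti-Mullerian hormone, fell by 0.29 on the log2 scale with the block (adjusted p = 0.0234), with overlapping groups, and did not pass by DESeq2 (0.438), without replicate 1 (0.407) or without replicate 3 (0.165). GDF9 and GDF11 did not pass in either fit. BMP4 shares 506 exonic bases in GENCODE 44 with a long non-coding gene on the opposite strand that was not analysed here.

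None of the 13 tested receptors passed the adjusted p in either fit. BMPR1A, a type I BMP receptor, was at 43.8, 42.3 and 44.7 CPM in LMB and at 49.8, 45.0 and 49.5 CPM in LMB+auxin, with a log2 fold change of 0.14 ± 0.06 (SE; adjusted p = 0.136 with the block) and no overlap between the groups. With the block, ACVR1, TGFBR1, TGFBR2 and TGFBR3 had log2 fold changes of 0.15, -0.02, 0.11 and -0.09. RGMB, a BMP co-receptor, had the largest fitted fall of the list at -0.26 ± 0.08 (SE; adjusted p = 0.0525 with the block). With the block and scaling by library size alone, RGMB passed (0.0285). With the block it did not pass by DESeq2 (0.47), by limma-voom (0.0636), with no filter on low counts (0.0907) or with any replicate left out (0.125 to 0.429). RGMB shares 2682 exonic bases with a non-coding gene on the opposite strand, which was at 7.57 to 8.73 CPM in LMB and at 5.94 to 7.02 CPM in LMB+auxin and was lower with auxin in each pair. Its part in the RGMB values was not tested.

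The 6 transducing SMADs were all tested and none passed. In the BMP branch, SMAD1, added after its values were seen, was at 20.3 to 22.8 CPM in LMB and 19.2 to 20.9 CPM in LMB+auxin and was lower with auxin in all 3 pairs, with a log2 fold change of -0.11 ± 0.07 with the block (SE). SMAD5 was at 90.5 to 96.0 CPM in LMB and 87.8 to 99.9 CPM in LMB+auxin, and SMAD9 at 0.762 to 1.96 CPM and 0.811 to 1.58 CPM. SMAD4, the common partner, was at 73.7, 72.5 and 73.7 CPM in LMB and at 81.8, 75.7 and 73.4 CPM in LMB+auxin (log2 fold change with the block 0.07 ± 0.05, SE; adjusted p = 0.466). SMAD2, of the TGF-beta branch, was higher in each LMB+auxin library, by 0.09 ± 0.05 (SE; adjusted p = 0.277 with the block), and SMAD3 had a log2 fold change of -0.04.

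Of 15 secreted antagonists, 3 were tested and none passed. TWSG1, which binds BMP together with chordin, was at 242.5, 262.6 and 248.5 CPM in LMB and at 241.3, 249.3 and 257.7 CPM in LMB+auxin. NBL1 and FSTL3 had log2 fold changes of -0.04 and -0.05 with the block. The other 12 were below the filter on low counts, and 3 of them had no count.

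Of the intracellular regulators, 16 of 19 were tested and 1 passed with the block. TOB1, an antiproliferative protein reported to bind SMADs, fell by 0.24 on the log2 scale (adjusted p = 0.0408 with the block), with overlapping groups, and did not pass with any replicate left out (0.0539 to 0.565), by DESeq2 (0.438), by limma-voom (0.0554) or with no filter on low counts (0.0646). It shares 281 exonic bases with TOB1-AS1 on the opposite strand, at 1.96 to 3.57 CPM. STRAP, USP15, TRIM33, FKBP1A, TGIF1 and ZFYVE9 had log2 fold changes between -0.02 and 0.14, and none of them passed.

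Among 8 other BMP targets, 4 were tested and 1 passed with the block. MSX2, a homeobox gene induced by BMP, was at 11.8, 12.8 and 12.9 CPM in LMB and at 10.4, 10.0 and 10.1 CPM in LMB+auxin. All 3 LMB+auxin libraries were below all 3 LMB libraries. The log2 fold change was -0.30 ± 0.08 (SE; adjusted p = 0.0196 with the block, 0.954 without it). With the block it did not pass by DESeq2 (0.398), without replicate 2 (0.194) or without replicate 3 (0.327). MSX1, GATA2 and GATA6 did not pass.

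Among 11 TGF-beta targets, 9 were tested and 2 fell by the adjusted p with the block. JUNB, an AP-1 subunit, was at 39.9, 67.6 and 40.5 CPM in LMB and at 27.5, 54.6 and 33.1 CPM in LMB+auxin. Each pair was lower with auxin, and the groups overlapped through the replicate 2 libraries. The log2 fold change was -0.37 ± 0.06 (SE; adjusted p = 1.928e-06 with the block, 0.954 without it), 1.29-fold lower and just under the fold a call needed. With the block JUNB passed that fold without replicate 2 (log2 fold change -0.40), without replicate 3 (-0.41) and with scaling by library size alone (-0.38). JUNB shares 259 exonic bases with HOOK2 on the opposite strand, at 30.9 to 46.2 CPM. CDKN1A, the cell cycle inhibitor p21, chosen after its values were seen, fell by 0.35 on the log2 scale with the block (adjusted p = 0.0158), and did not pass by DESeq2 (0.356) or with any replicate left out (0.089 to 0.124). CCN2, which encodes a matrix-associated growth factor induced by TGF-beta, had the largest fitted rise of the genes tested in this list at 0.28 ± 0.10 (SE; adjusted p = 0.103 with the block). TGFBI, KLF10 and MYC did not pass.

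PMEPA1, a feedback inhibitor of TGF-beta signalling chosen after its values were seen, was below the filter. It had 15, 16 and 6 counts in LMB and 29, 22 and 22 counts in LMB+auxin. Without the filter on low counts its log2 fold change was 1.04 with the block (adjusted p = 0.034) and 1.05 without it (adjusted p = 0.401).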

How the data were processed

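The authors deposited raw counts per Ensembl gene, made from stranded, ribosome-depleted paired-end libraries. Per the labels, CASAVA 1.8.2, STAR 2.6.1c and featureCounts 1.5.2 were used with GRCh38, but the study's methods name other versions of STAR and featureCounts. Strand setting and treatment of reads with several matches are not given in the sources used here. Libraries were grouped by their recorded treatment, 3 per group, described by the study as biological replicates.

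Coordinates came from GENCODE 44. Symbols came from a reference list of gene names, or else from GENCODE 44, and 98.1% of identifiers were matched to these together. Genes above 1 CPM in at least 3 libraries went, after TMM scaling, into the edgeR 4.0.16 quasi-likelihood test (R 4.3.3), and p-values were Benjamini-Hochberg adjusted over all of them. CPM and RPKM were computed from the deposited counts. Scripts were tested on simulated data. Replicate numbers were taken to pair the libraries, since the deviations of same-numbered libraries from their group means correlated across genes (r = 0.527, 0.686 and 0.269). Between libraries of different number, r was 0.139 and 0.143 for replicates 1 and 3, and -0.569 to -0.296 where replicate 2 took part. The block fit is therefore given beside the other.

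Named genes were, in each list, the 4 highest by mean CPM, any called, and the largest rise and fall, with the nearest gene to each of the 7. The 8 genes and the pathway lists were proposed with earlier results of these data known, although the rule for the 8 uses no measured value. A further listed gene is not reported here. Other scalings, filters, tests (DESeq2 1.42.0, limma 3.58.1) and left-out libraries were run. With 3 libraries against 3, an exact permutation test cannot give a p below 0.1, so none was used.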

Additional observations from a re-analysis of the deposited data

How the results depend on the processing

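None of the 7 tested genes was called under any alternative. Of 153 alternative values of their log2 fold changes, 139 kept their direction and 14, in 5 genes, turned it, all with a library or a replicate pair left out. The ranges below take together fits without the block that left out 1 library and block fits that left out a pair. With libraries left out the log2 fold changes ran -0.268 to 0.56 for ID1, -0.0766 to 0.265 for ID2, -0.118 to 0.64 for ID3, -0.314 to 0.0645 for SMAD6, -0.0933 to 0.148 for SKIL, -0.123 to -0.0228 for SMAD7 and 0.112 to 0.173 for BAMBI. In the block fits alone, ID1 ran 0.114 to 0.163 and ID3 0.215 to 0.316, and SKIL also kept its direction. There ID2 turned to -0.00352 without replicate 1 and SMAD6 to 0.0645 without replicate 3. Among the other named genes, 44 of 877 alternative values turned direction with libraries left out, with ranges of -0.837 to 0.0889 for CDKN1A, -0.0972 to 0.000639 for FSTL3, -0.151 to 0.0191 for GATA6, -0.0429 to 0.0454 for GDF11, -0.179 to 0.0153 for GDF9, -0.297 to 0.0857 for KLF10, -0.082 to 0.137 for MSX1, -0.232 to 0.146 for MYC, -0.104 to 0.0253 for NBL1, -0.0895 to 0.0123 for SMAD3, -0.00655 to 0.0858 for SMAD5, -0.427 to 0.151 for SMAD9, -0.148 to 0.0244 for TCF3, -0.0505 to 0.175 for TCF4, -0.0465 to 0.113 for TGFB1, -0.0437 to 0.186 for TGFBI, -0.0693 to 0.0319 for TGFBR1, -0.0332 to 0.0196 for TRIM33 and -0.0351 to 0.0304 for TWSG1. In the block fits alone CDKN1A ran -0.407 to -0.285, while others, among them GDF9 and NBL1, turned there too. With all libraries, GDF11 turned to 0.00445 with DESeq2 size factors, 0.00437 by DESeq2 and 0.00502 by DESeq2 with the block. MSX1 turned to -0.00414 with library size alone, -0.00124 with upper quartile scaling and -0.00301 with the block and library size alone.

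Over all tested genes, 1 was called without the block, at an unadjusted p under 0.05 for 741. The count was 0 with scaling by library size alone (737 at an unadjusted p under 0.05), 39 with no filter on low counts and 11 by DESeq2. With the replicate block it was 201 in edgeR, 31 by DESeq2, 185 by limma-voom, 211 with no filter and 254 with library size alone. With 1 library left out and no block it ran from 0 to 5, and with the block and a replicate pair left out from 137 to 160. Of the pathway lists, 1 gene was called with the block and no filter (PMEPA1) and 1 with the block and library size alone (JUNB), and 0 to 1 with libraries or pairs left out. With all libraries, the block alone changed no call among the named genes, and it took 7 of them past the adjusted p, as given with their values. RPKM per longest transcript was 22.6 for ID3, 0.5497 for SMAD6, 17.1 for SMAD7 and 33.63 for BAMBI. The cause of these differences was not tested. Counting error was largest for SMAD6, and ID4 was not detectable at this depth.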

Other observations

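The partners of the ID proteins did not pass the test in either fit (0 of 5 tested). TCF3, which encodes the E proteins E12 and E47, was at 140.1, 159.6 and 147.2 CPM in LMB and at 120.6, 155.0 and 148.0 CPM in LMB+auxin. TCF12, another E protein, was at 76.2 to 78.6 CPM in LMB and at 79.2 to 82.3 CPM in LMB+auxin, so its groups did not overlap, with a log2 fold change of 0.07 ± 0.05 (SE; adjusted p = 0.463 with the block). TCF4 and ETS2 had log2 fold changes of 0.05 and 0.10 with the block. ETS2 is a transcription factor whose family ID proteins can bind.

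The gene whose log2 CPM was most like that of each tested gene over the 6 libraries was found among 12490 genes, or 12491 for SMAD6, with a mean of at least 5 CPM. For ID1 it was SCD, a fatty acid desaturase (r = 0.998), and for ID3 it was ACAT2, a sterol and fatty acid metabolism enzyme (r = 0.9998). ID2 was nearest to RPS23, a ribosomal protein gene (r = 0.998), SMAD6 to METTL25B (0.999), SMAD7 to SNORD35A (0.996), BAMBI to ALDH9A1 (0.996) and SKIL to ENSG00000264324 (0.998). An r above 0.95 was reached by 532 genes with ID1 and 390 with ID3, against 40 with BAMBI. With 6 libraries that share replicate numbers, the nearest gene of so many is a description.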
